A study of Mus musculus with 4 samples.

Results

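miR-143 and miR-145 are a pair of microRNAs made from one cluster and known as microRNAs of smooth muscle. They were followed here as the 2 probes mmu-miR-143 and mmu-miR-145, taken by name from the 700 mouse microRNA probes of the chip, each printed as 5 spots per array. The arrays measured tumours of the mouse mammary carcinoma line 4T1 after orthotopic injection of 50000 cells into each of 20 female mice given as Balb/s in the labels. At a tumour volume of 1 cm3, 10 mice received 10 Gy to the primary tumour and 10 received sham radiation, after which the primary tumour was removed and metastases grew to the end point. There were 4 groups with 1 array each: metastases of mice whose primary tumour had received 10 Gy, primary tumours after 10 Gy, metastases of sham mice, and primary tumours after sham treatment. All 4 groups come from the same injected line, and the metastases themselves were not the irradiated site. The labels name neither the organ of the metastases nor the number of mice behind an array. With no second array in any group, no difference below has a replicate check.

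A microRNA is a short RNA that pairs with messenger RNAs, mainly through its seed (bases 2 to 8), and lowers their output. miR-143 and miR-145 are processed from a common long transcript whose promoter responds to serum response factor and myocardin in smooth muscle cells. They hold smooth muscle in its contractile state, with Klf4, Klf5 and Elk1 among their known targets. In solid organs most of their RNA is found in smooth muscle, pericytes and fibroblasts rather than in epithelial cells, and many carcinomas have less of both than the normal tissue around them. In the RefSeq gene table of mouse assembly GRCm38.p6, both genes, Mir143 and Mir145a, lie within the span of the long non-coding RNA gene Carmn, with 0 other genes between them. The members do not share a seed, no other probe of the array shares the seed of either (0 probes in each case), and their target sequences have no common run longer than 3 bases. The longest run shared with any other probe was 8 bases for miR-143 (miR-1959) and 9 bases for miR-145 (miR-684). Cross-hybridisation was not tested.

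miR-143 was bright in metastases and dim in primary tumours in both arms. Its spots had a mean intensity of 4759 ± 461 on the array of metastases after 10 Gy, 800.3 ± 74.8 on that of the primary tumour after 10 Gy, 5386 ± 178 on that of sham metastases and 316.9 ± 13.9 on that of the sham primary tumour (SD over 5 spots of 1 array). The median intensity of the 180 empty spots, which hold no probe, was 252.4, 416.8, 177.2 and 171.5 on the same arrays. On the metastases arrays miR-143 was thus 18.9 times the empty spots after 10 Gy and 30.4 times after sham treatment. On the primary tumour arrays it was 1.92 times after 10 Gy and 1.85 times after sham treatment. A probe was called detected when 3 or more of its 5 spots lay over a limit set on each array, the 95th percentile of its empty spots, and by this rule miR-143 was detected on all 4 arrays, with 5 of 5 spots over the limit on each.

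miR-145 followed the same order of arrays. Its mean spot intensity was 4393 ± 436 in metastases after 10 Gy, 818.8 ± 77.9 in the irradiated primary tumour, 5396 ± 163 in sham metastases and 432.2 ± 14.3 in the sham primary tumour. This was 17.4, 1.96, 30.5 and 2.52 times the empty spots. It too was detected on all 4 arrays by all 5 spots. Both probes were therefore far above background in metastases and close to it in primary tumours, so the primary tumour values set the precision of each difference that includes them. With the stricter limit of 2 times the median of the empty spots, miR-143 was detected on 2 arrays, those of the metastases, and miR-145 on 3 arrays, those of the metastases and of the sham primary tumour.

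**Figure D1:**
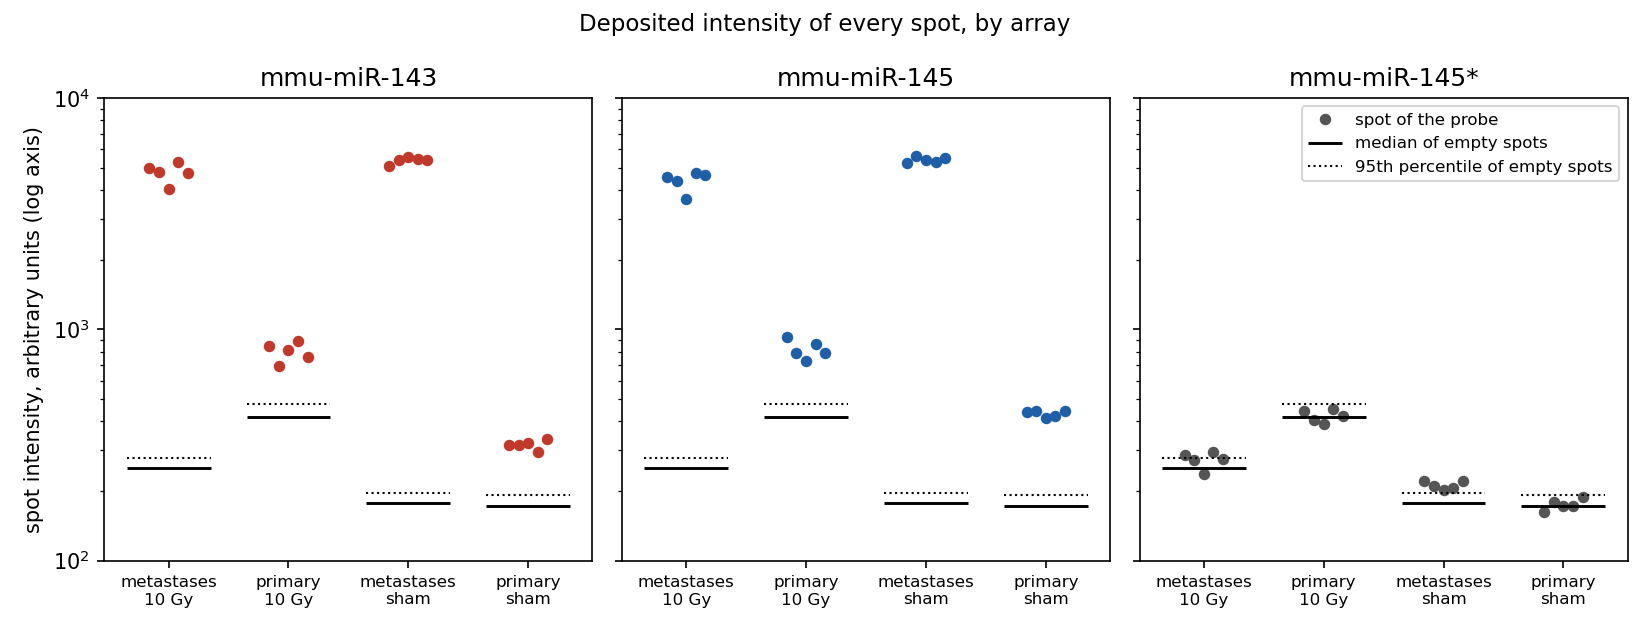
Deposited intensity of the 5 spots of mmu-miR-143, mmu-miR-145 and the passenger strand mmu-miR-145* on each of the 4 arrays, on a log axis in arbitrary units. Solid lines mark the median and dotted lines the 95th percentile of the empty spots on each. Spots of both members lie between 3649 and 5612 on the metastases arrays and between 296.03 and 929.78 on the primary tumour arrays, while those of miR-145* lie near the empty spots on every array.

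The passenger strand, the arm of the hairpin that is mostly degraded, was on the chip for miR-145 only. Its probe, miR-145*, had a mean intensity of 273.1 ± 22.2 in metastases after 10 Gy, 422.7 ± 26.7 in the irradiated primary tumour, 211.7 ± 8.67 in sham metastases and 174.6 ± 9.84 in the sham primary tumour. That is 1.08, 1.01, 1.2 and 1.02 times the empty spots. It was detected on 1 array, that of sham metastases, where all 5 spots exceeded the limit, and on 0 arrays with the limit of 2 times the empty spots. The authors' deposited table lists it on the same array at 38.15 intensity units and also in metastases after 10 Gy at 53.10. It lists no value for either primary tumour.

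The arrays differed in their overall brightness. The array of the primary tumour after 10 Gy stood apart, with the highest empty spots and 186 detected probes, against 337 to 459 on the others. The brightness of empty spots was correlated with their row on the chip (-0.52 in metastases and -0.62 in the primary tumour after 10 Gy, 0.17 in metastases and 0.60 in the primary tumour after sham treatment, over 180 spots). The members' spots stayed above the empty spots within 10 rows of them on every array, the smallest margins being 262.8 for miR-143 and 363.9 for miR-145 in the irradiated primary tumour, and 122.8 and 245.4 in the sham primary tumour. For comparison between arrays, normexp background correction with an added offset of 50 was applied, spots were averaged on the log2 scale and the arrays were quantile normalized, as described under the processing.

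The first question is the difference between sites, metastases against primary tumour. In the sham arm, miR-143 had a normalized log2 level of 11.70 in metastases and 7.77 in the primary tumour, a difference of 3.92 ± 0.10 (15.2-fold). The error is an SD of 5 spot-by-spot differences taken before normalization, spots being paired by their order on the chip. It covers scatter within the 2 chips, not between chips or animals. miR-145 had a level of 11.80 in metastases and 8.21 in the primary tumour, a difference of 3.60 ± 0.06 (12.1-fold). Spots of the groups did not overlap for either. Over the 473 probes detected on either array, 11.8% were at least 2-fold higher in metastases, both members among them, and 10.6% were lower by 2-fold or more. Of these probes, 1 had a larger positive difference than miR-143, the epithelial miR-200c (4.02), and 4 had a larger one than miR-145. Those 4 were miR-200c, miR-143, the epithelial miR-200b (at least 3.77) and the lymphocyte miR-150 (3.76). On the linear scale, after subtraction of the median empty spot only, the ratio of metastases to primary tumour was 35.8 for miR-143 and 20.0 for miR-145. This ratio leaves out both the offset and the normalization.

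After 10 Gy, the metastases also exceeded the primary tumour, by a smaller difference. miR-143 had a level of 12.22 in metastases and 9.89 in the primary tumour, a difference of 2.34 ± 0.24 (5.05-fold). miR-145 had a level of 12.03 in metastases and 9.99 in the primary tumour, a difference of 2.04 ± 0.15 (4.12-fold). No spot of a metastases array was as dim as a spot of the primary tumour array for either member. Among the 344 probes detected on either array, 10.2% were at least 2-fold higher in metastases and 11% were lower by 2-fold or more. A larger positive difference was found for 12 probes in the case of miR-143 and for 16 in that of miR-145. The split of probes past 2-fold depended on the scaling here, with 35 higher and 38 lower as reported, 49 and 15 without normalization, 42 and 16 when scaled to the 75th percentile and 43 and 20 with cyclic loess. Both members stayed at least 2-fold higher under each of these. On the linear scale above the empty spots, the ratio of metastases to primary tumour was 11.8 for miR-143 and 10.3 for miR-145.

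**Figure D2:**
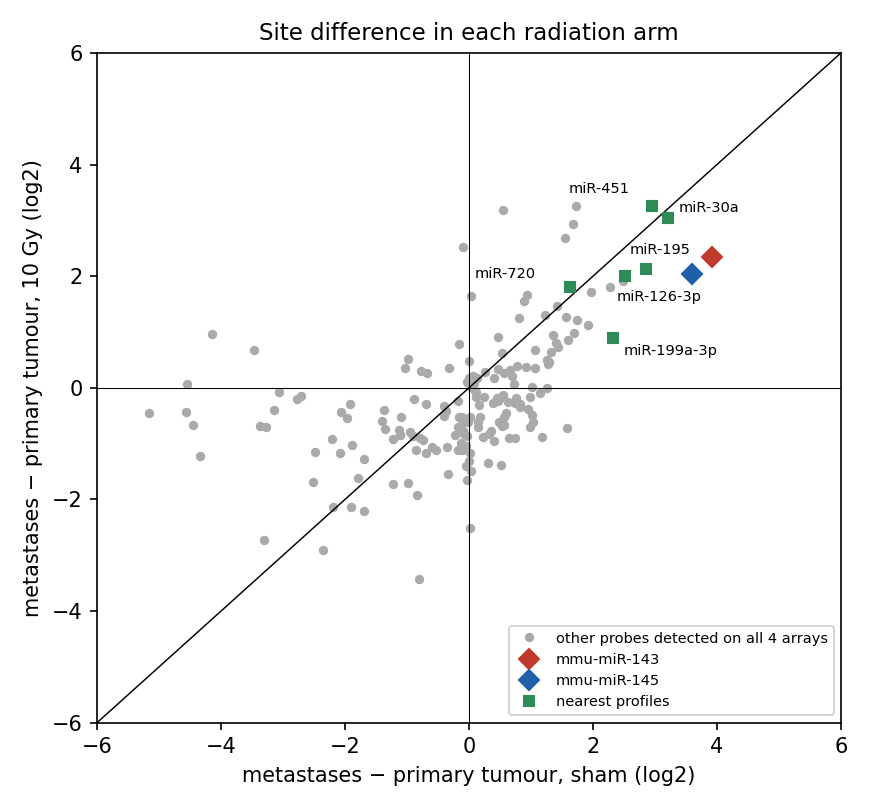
Difference between metastases and primary tumour (log2) in the sham arm on the horizontal axis and in the 10 Gy arm on the vertical axis, for each probe detected on all 4 arrays, with a line where both arms are equal. Diamonds mark the members, at 3.92 and 2.34 for miR-143 and at 3.60 and 2.04 for miR-145, to the right of the line, and squares mark the 6 probes with the nearest profiles.

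Both arms were also fitted together with limma, with site and radiation as additive terms for the 374 probes that were detected on 2 or more arrays. The site term, metastases against primary tumour, was 3.13 ± 0.53 (SE) for miR-143 and 2.82 ± 0.52 (SE) for miR-145. With 1 residual degree of freedom, limma's adjusted p (Benjamini-Hochberg over all 374 probes) was 0.174 for miR-143 and 0.186 for miR-145, and neither passed 0.05. None of the probes passed it (0 of 374, or 0%), with 83 at an unadjusted limma p under 0.05, and the lowest adjusted p of any probe was 0.120. The metastases were higher than the primary tumour in both arms for both members, which is 2 of 2 pairs of arrays for each. The fit sets a term against the disagreement between arms and holds no spread between animals.

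The second question is how the tumours differed after radiation. In the primary tumour, which was the irradiated site, miR-143 had a normalized level of 9.89 after 10 Gy and 7.77 after sham treatment, a difference of 2.12 ± 0.28 (4.33-fold). miR-145 had a level of 9.99 after 10 Gy and 8.21 after sham treatment, a difference of 1.78 ± 0.20 (3.44-fold). Of 339 probes detected on either array, 14.7% were at least 2-fold higher after 10 Gy and 13% were lower by 2-fold or more. A larger positive difference was found for 5 probes in the case of miR-143 and for 11 in that of miR-145. These differences depended on the scaling more than those between sites. Without normalization they were 1.05 for miR-143 and 0.53 for miR-145, where the median of the measured differences of the same probes, with no bounds, was -0.29 (-0.06 as reported). With scaling to the 75th percentile they were 1.52 and 1.00, where that median was 0.18. Relative to the median the differences were 1.34 for miR-143 and 0.82 for miR-145 under both. The match is by construction, since this scaling only shifts each array by a constant. The number of probes at least 2-fold higher and lower was 50 and 44 as reported, 7 and 89 without normalization, 21 and 59 when scaled to the 75th percentile and 29 and 49 with cyclic loess. In intensity above the empty spots, miR-143 was at 383.4 after 10 Gy and 145.5 after sham treatment, a ratio of 2.64. miR-145 was at 401.9 after 10 Gy and 260.7 after sham treatment, a ratio of 1.54.

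In metastases, the level of miR-143 was 12.22 in mice whose primary tumour had received 10 Gy and 11.70 in sham mice, a difference of 0.53 ± 0.18. That of miR-145 was 12.03 after 10 Gy and 11.80 after sham treatment, a difference of 0.23 ± 0.17. Both were under 2-fold, as were most of the 481 probes detected on either array, of which 2.29% were at least 2-fold higher and 2.49% were lower by 2-fold or more. The direction was not settled. Without normalization the difference was -0.21 for miR-143 and -0.33 for miR-145. Relative to the median of the tested probes it was 0 for miR-143 and -0.13 for miR-145. Scaling to the 75th percentile gives the same relative values by construction. Above the empty spots the ratio of 10 Gy to sham was 0.865 and 0.794. As deposited, every spot of miR-145 was dimmer after 10 Gy, at 3649 to 4736 against 5213 to 5612 after sham treatment, while the spots of miR-143 overlapped, at 4028 to 5280 after 10 Gy and 5099 to 5575 after sham treatment. The numbers of probes at least 2-fold higher and lower moved from 11 and 12 as reported to 7 and 71 without normalization and 14 and 10 with cyclic loess. In the additive limma fit, the radiation term was 1.32 ± 0.53 (SE, adjusted p = 0.755) for miR-143 and 1.01 ± 0.52 (SE, adjusted p = 0.763) for miR-145. No probe passed 0.05 for this term (0 of 374, or 0%, with 22 at an unadjusted limma p under 0.05).

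**Figure D3:**
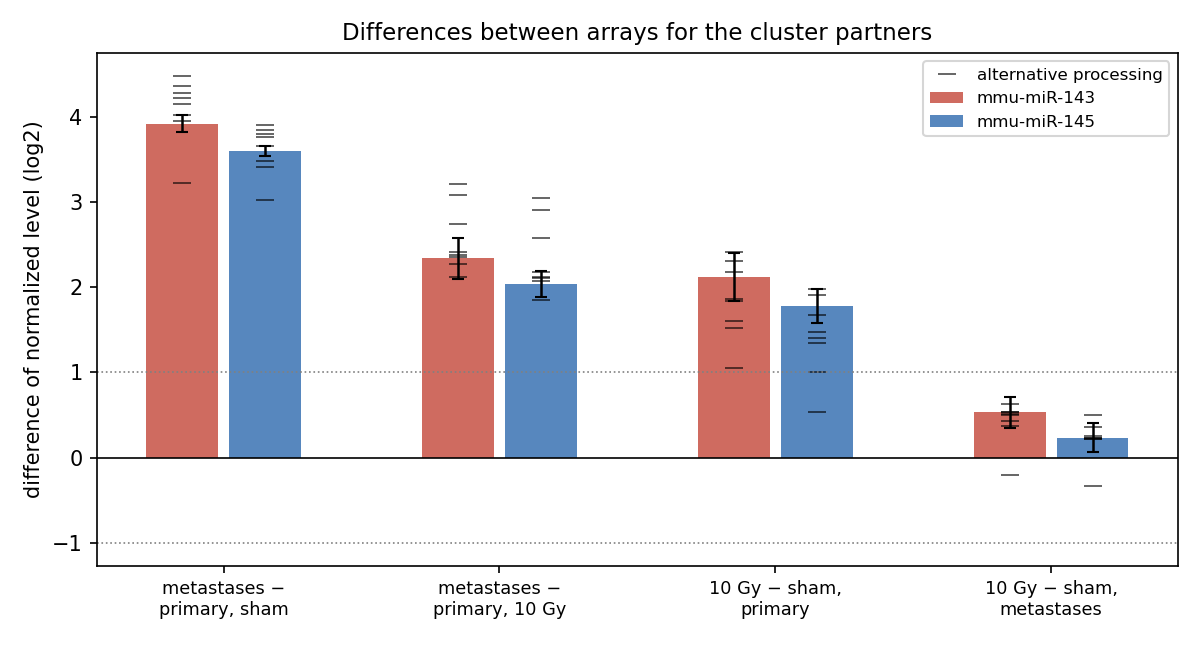
Difference of normalized level (log2) between 2 arrays for miR-143 and miR-145 in the 4 comparisons. Error bars give the SD over 5 pairs of spots before normalization, and short lines mark each alternative processing. Dotted lines mark 2-fold. The differences between sites lie above 2-fold under every setting, from 1.85 to 4.48, whereas those after radiation in metastases lie between -0.33 and 0.63.

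When the radiation response of the primary tumour was subtracted from that of metastases, the result was -1.59 ± 0.28 for miR-143 and -1.55 ± 0.14 for miR-145 on the log2 scale. It is the same quantity as the smaller site difference after 10 Gy. Of the 374 probes, 11.8% had such a difference of -1 or lower. Over these, 12 probes lay below miR-143 and 13 below miR-145. The sign was negative under every setting, but the size fell short of 2-fold for miR-145 without normalization (-0.86), when scaled to the 75th percentile (-0.75) and with cyclic loess (-0.83). The difference was not tested, since each of the 4 groups has 1 array.

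The partners moved together across the arrays. Their levels are not set against each other, since probes differ in binding, but their differences between arrays can be. The difference for miR-145 minus that for miR-143 was -0.33 ± 0.09 for metastases against primary tumour in the sham arm, -0.29 ± 0.22 for the same comparison after 10 Gy, -0.33 ± 0.19 for 10 Gy against sham in the primary tumour and -0.30 ± 0.05 for 10 Gy against sham in metastases. miR-143 thus had the larger positive difference in each comparison as reported. The SD is that of spots before normalization. Without normalization, the scale of that SD, the gap was -0.57 between the sham sites. Between sites after 10 Gy it was -0.17, under its SD of 0.22. For 10 Gy against sham it was -0.52 in the primary tumour and -0.12 in metastases. Comparisons that have an array in common are not independent. The sign held under every setting, but the gap was as small as -0.07 in metastases and -0.10 between sites after 10 Gy, with the median of spots. With each probe's level centred on its mean over the 4 arrays, the root mean square difference between the members was 0.22 on the log2 scale. Each member lay 0.11 from the members' mean profile. Over the 178 other probes detected on all 4 arrays, the median distance from that profile was 1.71, and 0 of them came within 0.22. Distances within other pairs of probes were not computed, so how unusual the members' closeness is was not tested. Other pairs can run as close. In the order of arrays used above, miR-23a was at 14.14, 14.30, 14.14 and 13.15 and miR-23b at 14.15, 14.53, 14.15 and 13.20, a pair picked after its values were seen.

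The 6 nearest probes by this distance were miR-126-3p (0.59), a microRNA of endothelial cells, miR-30a (0.71), which is abundant in lung and kidney, miR-199a-3p (0.77), which is made in mesenchymal cells, miR-720 (0.79), since withdrawn as a fragment of a transfer RNA, miR-195 (0.82), of the miR-15 and miR-16 family, and miR-451 (0.85), made in red blood cells. Only probes detected on all 4 arrays could be chosen. This left out miR-200c, miR-200b and miR-150, whose differences between the sham sites were above that of miR-145. All 6 of the nearest probes were at least 2-fold higher in metastases than in the primary tumour of sham mice, from 1.63 for miR-720 to 3.21 for miR-30a. A probe had to move in this way to be near the members. They differed from the members after radiation: 10 Gy against sham in the primary tumour gave 1.16 for miR-199a-3p, 0.66 for miR-720 and 0.65 for miR-126-3p, 0.02 for miR-30a and miR-195, and -0.41 for miR-451. Under at least 1 other scaling all of these but that of miR-451 turned negative, for miR-199a-3p only to -0.01 without normalization. The median of the tested probes was -0.29 there. The members stayed positive under every scaling, but so did miR-214, miR-24, miR-222 and miR-23b of the smooth muscle and fibroblast list below. Without normalization those were at 1.12, 0.61, 0.17 and 0.19, and the members at 1.05 and 0.53. None of the 6 shares a seed with a member, and the longest run of bases shared with either was 5 (miR-195 with miR-143). The targets of 5 of them, as printed in the scanner tables and matched to RefSeq mature microRNAs of GRCm38.p6, are shown 5′ to 3′ with the seed in capitals, to let their sequences be set against one another.
miR-126-3p: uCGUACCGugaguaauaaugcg
miR-30a: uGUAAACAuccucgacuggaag
miR-199a-3p: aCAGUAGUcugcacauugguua
miR-195: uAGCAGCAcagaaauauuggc
miR-451: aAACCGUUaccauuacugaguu
These 5 have different seeds, so the nearness in profile joins probes with unlike sequences.

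**Figure D4:**
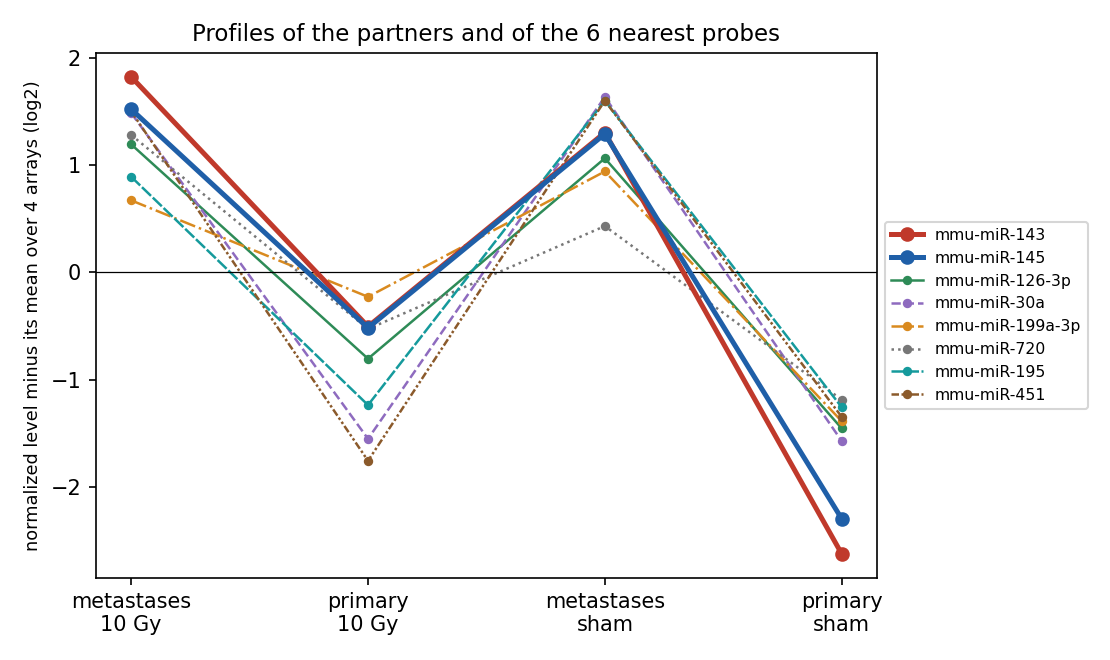
Normalized level minus its own mean over the 4 arrays (log2) for the members and the 6 probes with the nearest profiles, with lines joining the arrays only to guide the eye. The members lie lowest of the 8 in the sham primary tumour, where the levels before centring were 7.77 for miR-143 and 8.21 for miR-145.

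A list of 26 microRNAs known from smooth muscle, fibroblasts and other mesenchymal cells gives the setting of the pair. Of these, 24 were on the array, and without the members and miR-145* 21 were left. For metastases against the primary tumour without radiation, 20 of the 21 were detected on at least 1 array, with 7 at least 2-fold higher, 1 at least 2-fold lower and a median difference of 0.79. Over all 473 probes the shares were 11.8% and 10.6%, and the median was 0. The median stayed between 0.78 and 1.14 under the other scalings. A probe detected on 1 of the 2 arrays entered with its bound, which draws its difference toward 0. Of the 20 list probes, 18 were detected on both arrays. All probes were not matched to the list in brightness or in bounds, here or in the comparisons below. The 7 were miR-29c (3.22), miR-29b (1.54) and miR-29a (1.26), which target collagens and other matrix messages, miR-195 (2.86), miR-199a-3p (2.33), miR-27b (1.27) and miR-152 (1.26). The lower one was the passenger strand miR-214* (-3.27), while its partner strand miR-214 differed by 0.51. The members' own differences, 3.92 and 3.60, lay above those of every other probe on the list as reported, but miR-29c was above miR-145 without normalization (3.94, against 3.91 for miR-145) and when scaled to the 75th percentile (3.70, against 3.66 for miR-145). The brightest of the list, miR-125b-5p and miR-23b, differed by 0.38 and 0.95.

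After 10 Gy, 3 of the 20 detected list members other than the pair were at least 2-fold higher in metastases, with a median of 0, equal to that of all 344 probes, of which 10.2% were higher. Under the other scalings 4 or 5 of the 20 were higher and 0 lower, against 42 to 49 higher and 15 to 20 lower of all 344. The 3 higher as reported were miR-29c, at least 5.06-fold higher and not detected in the primary tumour, miR-195 (2.13) and miR-22 (1.56). The 2 at least 2-fold lower were miR-214 (-1.38) and miR-222 (-1.34), and neither was past 2-fold under the other scalings. For 10 Gy against sham in the primary tumour, 5 of 18 were at least 2-fold higher, namely miR-214 (2.28), miR-24 (1.49), miR-222 (1.48), miR-23b (1.33) and miR-199a-3p (1.16), and 1, miR-214* (-2.20), was lower, against 14.7% and 13% of all probes. The median was 0.70 for these 18, against 0 over all 339 probes. Here the direction of the list's median depended on the scaling. It was -0.32 without normalization, 0 when scaled to the 75th percentile and 0.31 with cyclic loess. The median of all probes was -0.17, 0 and 0 in the same order. At least 2-fold higher were 1, 2 and 3 of the 18, against 7, 21 and 29 of all 339. miR-199a-3p was at -0.01 without normalization. For 10 Gy against sham in metastases, 0 of 20 were higher and 1, miR-29c (-1.13), was lower, with a median of -0.11, against -0.02 over all 481 probes, of which 2.29% were higher and 2.49% lower. Without normalization 8 of the 20 were lower, against 71 of all 481 probes, with a list median of -0.83 against -0.19 over all probes. Within the list, miR-143 and miR-145 had differences of 2-fold or more both between sites in each arm and in the irradiated primary tumour, though miR-145 fell short in the last without normalization. For miR-199a-3p the values were 0.89 after 10 Gy and 2.33 in the sham arm between sites, and 1.16 in the irradiated primary tumour. This too depended on the scaling. Its site difference after 10 Gy was 1.86 without normalization, 1.72 when scaled to the 75th percentile and 1.38 with cyclic loess. In the irradiated primary tumour it was -0.01, 0.46 and 0.78 in the same order.

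**Figure D5:**
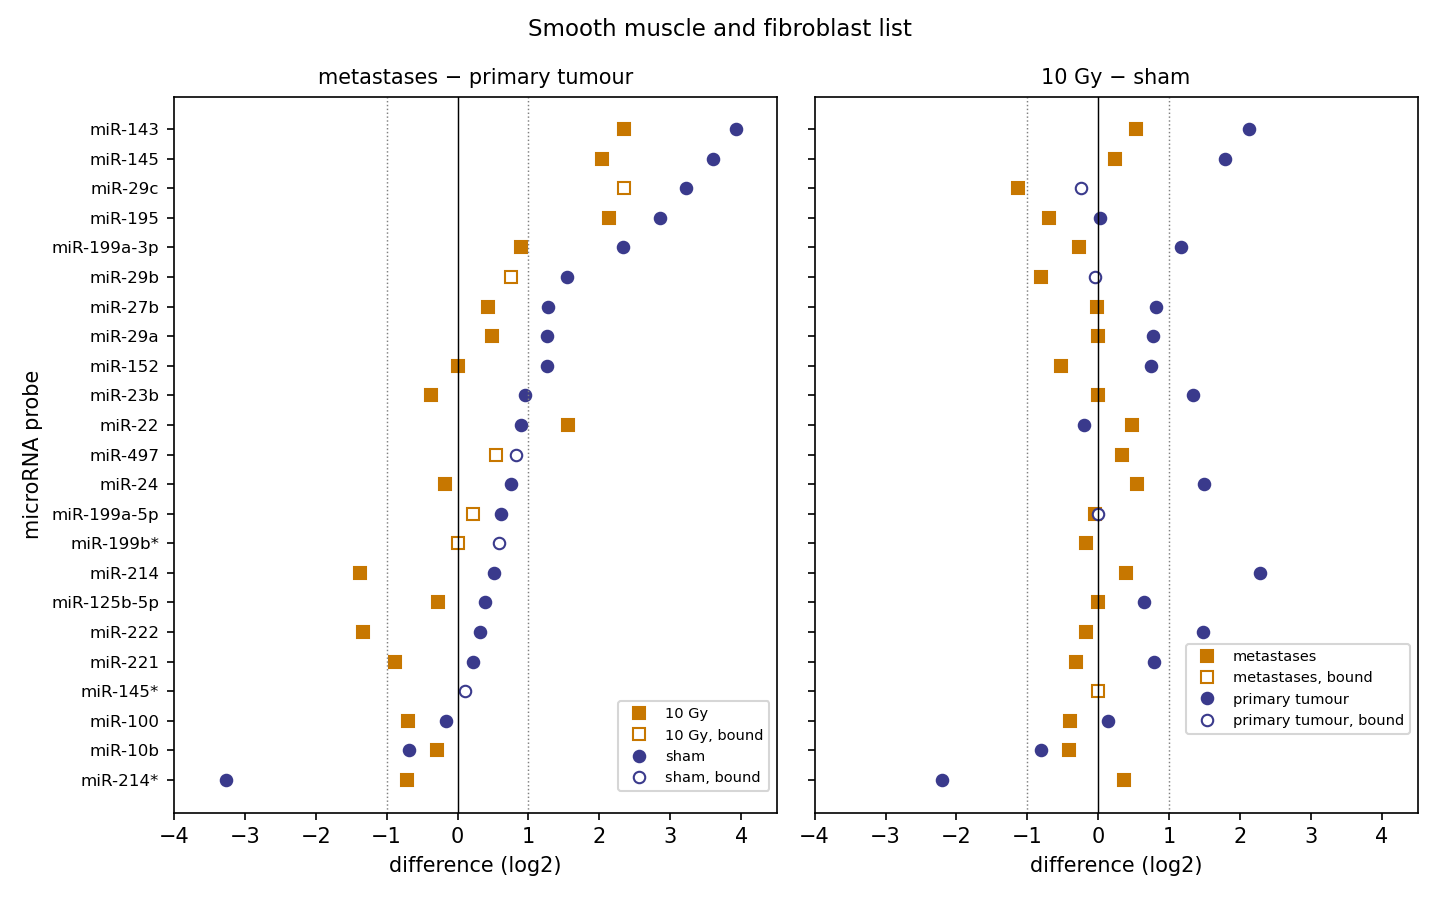
Log2 differences of the 23 detected probes of the smooth muscle and fibroblast list, between metastases and primary tumour on the left and between 10 Gy and sham on the right. Open symbols are bounds for probes detected on 1 of the 2 arrays, and dotted lines mark 2-fold. miR-143 and miR-145 lie at 3.92 and 3.60 between sites in the sham arm and miR-29c at 3.22, an order that for miR-145 and miR-29c turned without normalization and with scaling to the 75th percentile.

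Markers of other cell types also differed between the sites. Summed intensity above the empty spots was 22410 in metastases after 10 Gy and 4282 in the irradiated primary tumour for the 2 endothelial probes, and 32130 in metastases and 6031 in the primary tumour after sham treatment. For the 7 epithelial probes, the miR-200 family with miR-203 and miR-205, it was 7049 in metastases after 10 Gy and 49.07 in the irradiated primary tumour, and 7327 and 119.7 in the same order after sham treatment. Of these 7, all were detected on both metastases arrays, 1 in the irradiated primary tumour and 2 in the sham primary tumour. Of all 700 probes, 339 were detected in metastases after 10 Gy and 186 in the irradiated primary tumour. After sham treatment 459 were detected in metastases and 337 in the primary tumour. The lymphocyte microRNA miR-150 was at 864.2 in metastases after 10 Gy and 43.83 in the irradiated primary tumour, and at 3591 and 79.42 after sham treatment. The 3 erythroid probes summed to 11990 in metastases after 10 Gy and 843.2 in the irradiated primary tumour, and to 20730 and 2697 after sham treatment. The 3 myeloid probes were higher in metastases after 10 Gy (4118, against 264.0 in the primary tumour) and close after sham treatment (7544 and 6806). Some sums rested mostly on 1 bright probe. In metastases after 10 Gy, miR-126-3p was at 22390, miR-223 at 4050 and miR-451 at 10340. The endothelial miR-126-5p and the erythroid miR-144 were detected in sham metastases only. The endothelial, epithelial, lymphocyte and erythroid sums were higher in metastases in both arms, as the members were. The myeloid sum was so after 10 Gy only. Between the sham sites 0 of 3 myeloid probes passed 2-fold (miR-223 at -0.09), against 11.8% higher and 10.6% lower of all 473 probes. The part of these cell types in the members' difference was not tested. In such tissue samples, fewer cells of a type and less RNA per cell cannot be told apart.

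Skeletal and heart muscle markers were not uniform. Their 7 probes, of which 4 were detected on every array and the heart microRNAs miR-208a, miR-208b and miR-499 on none, summed to 13010 in metastases after 10 Gy and 4085 in the irradiated primary tumour, but to 411.2 in metastases and 9595 in the primary tumour after sham treatment. The sham primary tumour sum was mostly miR-206, at 9444. Between the sham sites miR-206 differed by -5.17, whereas miR-1, miR-133a and miR-133b differed by 0.03, 0.10 and 0.07, next to the members' 3.92 and 3.60. In the primary tumour, 3 of the 4 detected probes were at least 2-fold higher after 10 Gy, namely miR-1 (4.82), miR-133a (3.21) and miR-133b (2.64), while miR-206 differed by -0.98 and the summed intensity was lower. The part of such tissue in the members' differences there was not tested. In metastases all 4 were at least 2-fold higher after 10 Gy, by 2.79 to 6.44, where the members differed by 0.53 and 0.23. Of all probes, 14.7% of 339 in the primary tumour and 2.29% of 481 in metastases were at least 2-fold higher after 10 Gy. The hepatocyte microRNA miR-122 was at 716.5 in metastases after 10 Gy and 53.79 in sham metastases, and was detected in neither primary tumour.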

How the data were processed

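Total RNA (2 µg per array) was tailed, tagged, stained with Cy3 and hybridised by a service provider on a microfluidic chip of in situ synthesised probes, per the labels' protocols. The deposited scanner tables give, per the file headers, a mean intensity for each spot on a linear scale, with no background subtracted, since empty spots lie far above 0. Intensity in the authors' deposited value table is per probe with background subtracted, and it served as an alternative. How it was made, and with what scanner or software, is not stated in the labels used here.

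Commas inside numbers were removed. Intensities were corrected with normexp (offset 50), taken to log2, averaged over the 5 spots of a probe and quantile normalized over 700 microRNA probes (limma 3.58.1, R 4.3.3). Depth has no equivalent on arrays, and the number of arrays limits precision. A probe detected on 1 of 2 compared arrays has a bound: on the other array its level is taken as measured or as the lowest detected level there, whichever is higher. The additive fit used lmFit and eBayes. The functions were tested on simulated data. Members, lists and the rule for named probes (the members and passenger strands, the 6 nearest profiles among probes detected on all 4 arrays, and from the list those at least 2-fold different and the brightest) were chosen with earlier results of these data known. For the list, the rule covered the sham site comparison; those named in other comparisons as at least 2-fold different, and single marker probes, were added after their values were seen. Groups follow the sample titles.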

Additional observations from a re-analysis of the deposited data

How the results depend on the processing

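Each member difference was recomputed under 8 alternatives. Differences between sites stayed positive and at least 2-fold in all of them. In the sham arm, the values for miR-143 and miR-145 were 4.48 and 3.91 without normalization, 4.23 and 3.66 with scaling to the 75th percentile, 4.16 and 3.77 with an offset of 16, 3.23 and 3.03 without background correction, 4.28 and 3.85 with a background line by chip row, 4.03 and 3.49 with the median of spots, and 4.37 and 3.80 from the authors' value table. Cyclic loess gave 3.41 for miR-145. In the 10 Gy arm they were 3.22 and 3.05 without normalization, 3.08 and 2.91 with scaling to the 75th percentile, and 2.75 and 2.58 with cyclic loess, with 1.85 for miR-145 without background correction. For 10 Gy against sham in the primary tumour they were 1.05 and 0.53 without normalization, 1.52 and 1.00 with scaling to the 75th percentile, and 1.60 and 1.4 without background correction. There miR-143 gave 2.41 with the background line, and miR-145 gave 1.34 with cyclic loess and 1.47 from the value table. In metastases, 10 Gy against sham turned to -0.21 and -0.33 without normalization, and miR-145 gave 0.50 with cyclic loess. The difference between the responses was -1.26 and -0.86 without normalization, -1.15 and -0.75 with scaling to the 75th percentile, -1.21 and -0.83 with cyclic loess, -1.11 and -1.18 without background correction, -1.87 and -1.74 with the background line, and -1.31 for miR-145 with the median of spots. Alternatives for this difference and for the partners were chosen after seeing the data. The median difference of the tested probes was itself -0.16 (site, sham) and 0.37 (metastases, 10 Gy against sham) with scaling to the 75th percentile, and -0.20 for the last without normalization. The cause of these shifts was not tested, except that by construction leaving the background in, or adding a larger offset, narrows differences that involve dim probes.

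In the additive limma fit, no setting brought a member under 0.05: adjusted p ranged from 0.0691 to 0.179 for miR-143 and from 0.0623 to 0.195 for miR-145 in the site term, and from 0.308 to 0.780 and from 0.338 to 0.917 in the radiation term. The difference of miR-145 minus that of miR-143 stayed negative, between -0.57 and -0.07. Counts of probes past 2-fold moved by over 1.5 times without normalization, from 56 to 86 higher in sham metastases, 38 to 15 lower in metastases after 10 Gy, 50 to 7 higher and 44 to 89 lower in the irradiated primary tumour, and 11 to 7 higher and 12 to 71 lower in metastases after 10 Gy against sham. They also moved to 16 lower (site, 10 Gy) and 21 higher (primary, 10 Gy) with scaling to the 75th percentile, to 20 and 29 with cyclic loess, and to 25 lower (site, 10 Gy) without background correction. No paired analysis was possible because each group has 1 array and so no replicate numbers to match. The additive fit sets the sites against each other within each arm, with 1 residual degree of freedom.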

Other observations

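The strands of miR-214, a microRNA of mesenchymal cells on the smooth muscle and fibroblast list differed in opposite directions in 2 of the 4 comparisons. In the primary tumour, miR-214 was higher after 10 Gy by 2.28 on the log2 scale, with levels of 11.93 after 10 Gy and 9.65 after sham treatment, whereas miR-214* was at 7.83 after 10 Gy and 10.04 after sham treatment, a difference of -2.20. Between metastases and primary tumour without radiation, miR-214 differed by 0.51 and miR-214* by -3.27. These signs held under the 3 other scalings. In the other comparisons the strands had the same sign, at -1.38 for miR-214 and -0.71 for miR-214* between sites after 10 Gy, and at 0.39 and 0.36 for 10 Gy against sham in metastases, where miR-214 turned negative without normalization (-0.43). Opposite signs were not particular to miR-214. Between the sham sites miR-16* differed by -3.15 and miR-16 by 1.41. For 10 Gy against sham in the primary tumour they differed by -2.34 and 0.55. Not every passenger strand was lower, with 0.16 and 0.04 for miR-31* in the same comparisons, and passenger strands were not counted as a set. All of these values were singled out after they were seen and were not tested.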
